A study of Mus musculus with 5 samples.

Results

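The endothelin system was followed through the postnatal mouse ovary with 6 genes: the ligands Edn1, Edn2 and Edn3, the receptors Ednra and Ednrb, and Ece1, which encodes an endothelin-converting enzyme. They were chosen by symbol and are 6 of the 31053 genes in the count matrices. Dissociated whole ovaries of untreated C57BL6/J mice, the inbred strain shared by all groups, had been sorted for live cells and counted by droplet single-cell RNA sequencing at 2, 3, 4, 5 and 6 wk of age, with 1 library per age. How many mice were pooled in a library was not given in the sources used here. The question put to the data was which ovarian cell types carried each ligand, receptor and the enzyme, and how those levels stood at each age across puberty.

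Endothelins are short secreted peptides cut from larger precursors, first by furin-type proprotein convertases and then by an endothelin-converting enzyme. They act on G protein-coupled receptors: the A type (Ednra) contracts vascular smooth muscle, and the B type (Ednrb) contracts some smooth muscle but, on endothelium, drives nitric oxide release and clears endothelin from the circulation. In the ovary, endothelins have been linked to granulosa cell function, to contraction around the follicle at ovulation and to the corpus luteum.

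The mature peptides, each 21 residues long, are what sets the ligands apart for the receptors, so the coding bases of the 3 mature peptides are shown. They come from the GENCODE vM21 transcripts on build GRCm38, on the coding strand, and capitals mark codons whose residue differs from that of Edn1.

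Edn1: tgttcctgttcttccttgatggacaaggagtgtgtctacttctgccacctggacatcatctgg

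Edn2: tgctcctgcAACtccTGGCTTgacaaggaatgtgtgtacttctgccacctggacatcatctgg

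Edn3: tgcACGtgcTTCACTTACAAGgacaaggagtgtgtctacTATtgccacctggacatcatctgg

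The Edn2 peptide differed from that of Edn1 at 3 residues, numbers 4, 6 and 7 counted from the first residue of the mature peptide. The Edn3 peptide differed from it at 6 residues, numbers 2, 4, 5, 6, 7 and 14. For both, all differences but the one at number 14 of Edn3 lay in the first 7 residues, and the last 7 residues were the same in all 3 peptides. These codons were residues 53 to 73 of the 202 in the Edn1 precursor, 46 to 66 of 175 in that of Edn2 and 97 to 117 of 214 in that of Edn3.

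On GRCm38, Edn1 (ENSMUSG00000021367) lies at chr13:42301476-42307990 on the plus strand, Edn2 (ENSMUSG00000028635) at chr4:120161206-120167360 on the plus strand and Edn3 (ENSMUSG00000027524) at chr2:174760619-174784042 on the plus strand. Ednra (ENSMUSG00000031616) lies at chr8:77663031-77724464 and Ednrb (ENSMUSG00000022122) at chr14:103814625-103844402, both on the minus strand. Ece1 (ENSMUSG00000057530) lies at chr4:137862237-137965229 on the plus strand. Edn1, Ednra and Ece1 each overlap a gene annotated on the opposite strand (Gm47118, 4933431K23Rik and Gm13012), and the counting used strand.

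The 5 libraries held 48163 cells, 7779 to 11077 each, with 93438618 to 144609431 unique molecular identifiers (UMIs, each standing for 1 captured transcript) and medians of 9056 to 12424 UMIs per cell. Cells were clustered with the 6 genes left out of the gene set used for clustering, and clusters were named from marker genes, so each name carries the ending -like. The classes were granulosa-like (17849 cells), stromal-like (14156), smooth muscle-like (4104), theca-like (971), pericyte-like (864), blood endothelial-like (716), hematopoietic-like (497), surface epithelial-like (321), lymphatic endothelial-like (230) and rete ovarii-like (91 cells, 85 of them at 2 and 3 wk). A further 8364 cells (17.4%) in 8 clusters stayed unnamed. Levels are given as CPM, counts per 1000000 UMIs of all cells of a class in a library, and comparisons between classes use edgeR's quasi-likelihood test on those sums, with the library as a block (n = 5 libraries, two-sided). The p-values therefore measure how the difference between classes varied across libraries that also differ in age. No test between ages was possible with 1 library each, and intervals for single libraries cover counting error only. Files from 2 to 4 wk were made with Cell Ranger 3.1.0 and those from 5 and 6 wk with 6.0.1, which cannot be told apart from age. Libraries shared 18 to 35 cell barcodes per pair.

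All 6 genes were detected in all 5 libraries, with 58294 UMIs in all for Ece1, 20178 for Ednra, 14510 for Ednrb, 7426 for Edn1, 4236 for Edn3 and 1533 for Edn2. The plot of levels by class shows that each gene was highest in a different set of cells.

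**Figure D1:**
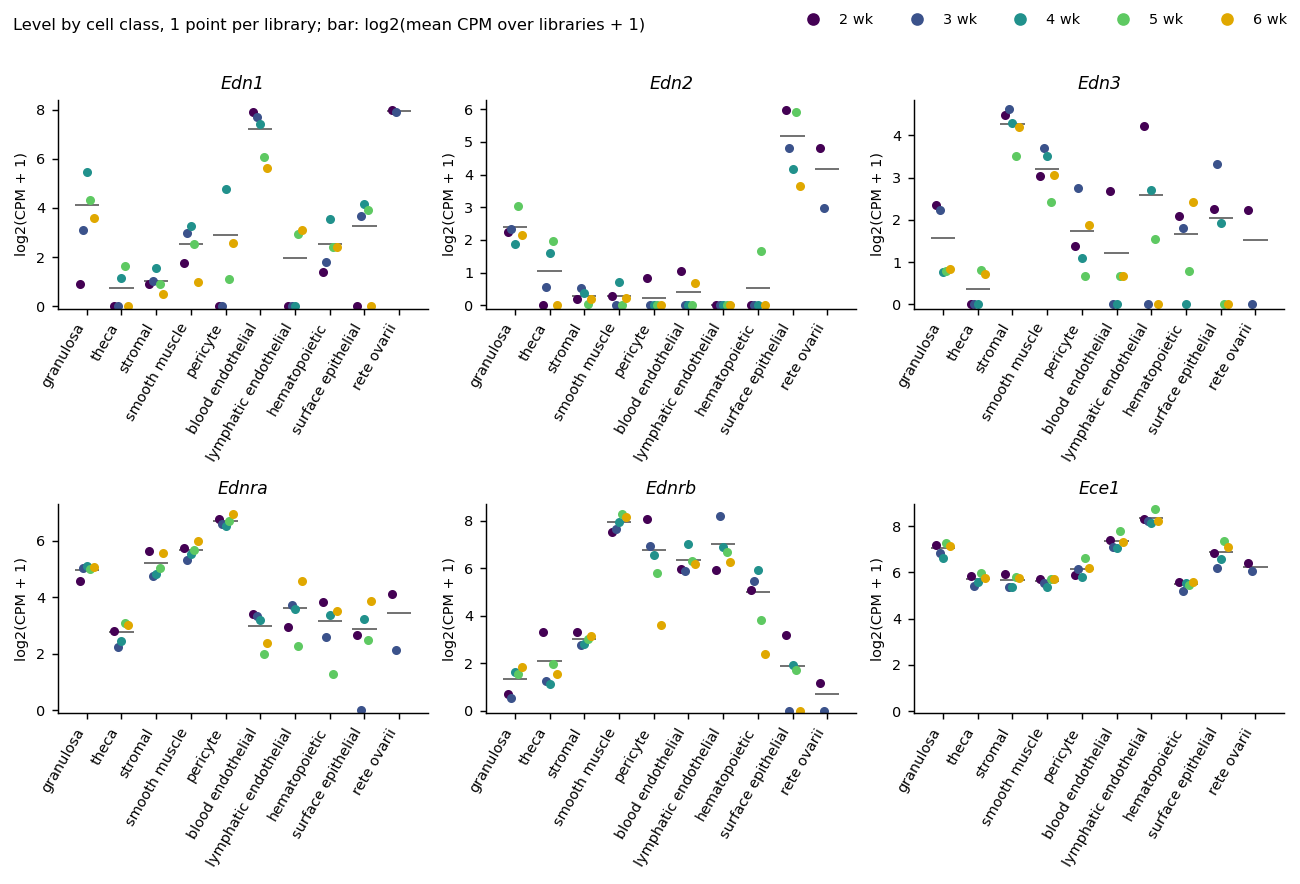
Level of each gene, as log2(CPM + 1), in 10 cell classes. Points are libraries coloured by age, bars mark the log2 of the mean CPM plus 1 over libraries, and sets under 10 cells are not drawn. The highest mean was in rete ovarii-like cells for Edn1, surface epithelial-like cells for Edn2, stromal-like cells for Edn3, pericyte-like cells for Ednra, smooth muscle-like cells for Ednrb and lymphatic endothelial-like cells for Ece1.

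Edn1, the ligand known as the main vasoconstrictor of endothelium, was high in blood endothelial-like cells and, at a lower level, in granulosa-like cells, the follicle cells that surround the oocyte. In blood endothelial-like cells it stood at 242.0, 208.5, 170.3, 66.3 and 48.3 CPM at 2, 3, 4, 5 and 6 wk, the order used for every run of 5 values (mean 147 ± 86.0, SD, n = 5). In stromal-like cells it stood at 0.849, 1.01, 1.91, 0.865 and 0.411 CPM. Every blood endothelial-like value was above every stromal-like value, and the fitted difference was 7.01 ± 0.25 (SE) on the log2 scale, or 129-fold (edgeR adjusted p = 3.1e-10, higher in 5 of 5 libraries). Granulosa-like cells stood at 0.881, 7.63, 43.3, 19.2 and 11.1 CPM (mean 16.4 ± 16.4), 9.99-fold above stromal-like cells (log2 3.32 ± 0.69, edgeR adjusted p = 0.0039, higher in 5 of 5 libraries). That fold rests in part on age. Leaving out 1 library in turn, the log2 difference ran from 2.95 to 4.03, the highest without the 2 wk library. At 2 wk both classes were close, at 0.881 and 0.849 CPM. Because granulosa-like cells were many, they held 71.2% of all Edn1 UMIs against 11.0% in blood endothelial-like cells.

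Edn1 was also counted in some other classes. Rete ovarii-like cells stood at 256.3 and 237.5 CPM at 2 and 3 wk, the ages with at least 10 such cells. Smooth muscle-like cells stood at 2.40, 6.97, 8.60, 4.72 and 1.01 CPM, 4.65-fold above stromal-like cells (log2 2.22 ± 0.24, edgeR adjusted p = 3.7e-05, 5 of 5 libraries). Hematopoietic-like cells were taken here as a gauge of free RNA in the droplets, and whether they make Edn1 themselves was not tested. They stood at 1.64, 2.53, 10.8, 4.38 and 4.34 CPM. These values rest on only 1, 1, 8, 6 and 5 UMIs, so the gauge is rough. The smooth muscle-like values were above these at 2, 3 and 5 wk and below them at 4 and 6 wk, so they were not separated from this background. The 26.3 CPM in pericyte-like cells at 4 wk came from 23 UMIs in 5 cells, and pericyte-like cells at 2 and 3 wk had none.

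In granulosa-like cells Edn1 was lowest at 2 wk and highest at 4 wk, with levels between them at 5 and 6 wk. A UMI was seen in 35 cells at 2 wk (1.16%), 192 at 3 wk (5.75%), 1139 at 4 wk (22.4%), 313 at 5 wk (12.0%) and 228 at 6 wk (6.00%). With each cell of at least 2000 UMIs thinned to 2000, the shares were 0.18, 1.31, 6.55, 2.76 and 1.55%. Hematopoietic-like cells had Edn1 in 1.96 to 3.53% of cells unthinned and in 0.289, 0.158, 1.90, 0.649 and 0.434% when thinned, with median depths of 4989 to 8596 UMIs against 12968 to 17995 in granulosa-like cells. The thinned granulosa-like share was below the hematopoietic-like share at 2 wk and above it at 3 to 6 wk. That background rests on 1 Edn1 UMI each at 2 and 3 wk and on 8, 6 and 5 later, so its own level is uncertain. Over 2 wk the ratio of CPM was 8.66 (95% interval 6.39 to 12.0) at 3 wk, 49.2 (37.0 to 66.9) at 4 wk, 21.8 (16.3 to 29.7) at 5 wk and 12.6 (9.38 to 17.2) at 6 wk. Blood endothelial markers summed to 11.2 to 15.2 CPM in granulosa-like cells, with 11.9 at 4 wk. Stress-response genes summed to 6390 to 10932 CPM there, and their part in the age pattern was not tested.

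Among all genes with at least 50 UMIs in granulosa-like cells, the share that stood at least 2-fold above or below 2 wk was 9.62% at 3 wk, 18.6% at 4 wk, 14.1% at 5 wk and 13.6% at 6 wk. Edn1 was past 2-fold at all 4 ages. Edn3 was past it downwards at 4, 5 and 6 wk, with ratios of 0.173, 0.176 and 0.193. Ednrb was past it upwards at the same ages, with 3.33, 2.96 and 4.03 (95% interval at 6 wk 2.80 to 5.96), at levels that stayed under 3 CPM and below the 4.34 to 60.6 CPM of Ednrb in hematopoietic-like cells. Of its 495 UMIs in the class, 132 lay in 1 cluster of 366 cells led by the stromal genes Col1a2 and Col1a1, with 44.0% of its cells marked as doublets, and their part in the ratios was not tested. The same cluster held 43 Edn3 UMIs and was highest in Edn3, at 6.68 CPM, at 6 wk, when the class had 59 Edn3 UMIs. Mean Edn3 over libraries was 1.99 CPM in the class and 2.17 CPM in hematopoietic-like cells, which were higher in 2 of 5 libraries. The hematopoietic-like values rest on 2, 1, 0, 1 and 5 Edn3 UMIs. The part of this background and of the Col1a2 cluster in the Edn3 ratios was not tested. Edn2, Ednra and Ece1 stayed within 2-fold at every age, with Ednra at 1.36 to 1.45 times its 2 wk level.

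In blood endothelial-like cells, the lining of the vessels, Edn1 stood in another order, highest at 2 wk and lowest at 6 wk. From 4 to 6 wk the levels went down in both classes. The ratio over 2 wk was 0.861 at 3 wk, 0.704 at 4 wk, 0.274 at 5 wk and 0.200 (0.153 to 0.259) at 6 wk. A UMI was seen in 14.3 to 26.1% of cells, and at 2000 UMIs per cell in 22.2, 23.7, 18.7, 9.39 and 8.01%. Depth differed between these libraries, with median UMIs per cell of 4587, 2277, 3667, 15162 and 9664. Cells with fewer than 2000 UMIs were left out of the thinned shares, so those shares cover the deeper cells of each library only. Of the genes with enough UMIs in this class, 6.99, 7.17, 8.73 and 8.05% were past 2-fold at 3, 4, 5 and 6 wk. Among the endothelin genes, Edn1 was past it at 5 and 6 wk and Ednrb, with a ratio of 2.10, at 4 wk.

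The vessel cells of the early libraries carried more RNA of other cell types. In blood endothelial-like cells, smooth muscle markers summed to 1200, 1064, 735, 330 and 121 CPM and stromal markers to 733, 380, 254, 207 and 79.9 CPM, while their own markers summed to 5333, 6211, 6038, 6690 and 7198 CPM. The cells that carried those other markers, smooth muscle-like and stromal-like, themselves had under 9 CPM of Edn1. The part of these values and of the software change between 4 and 5 wk in the order of Edn1 was not tested.

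**Figure D2:**
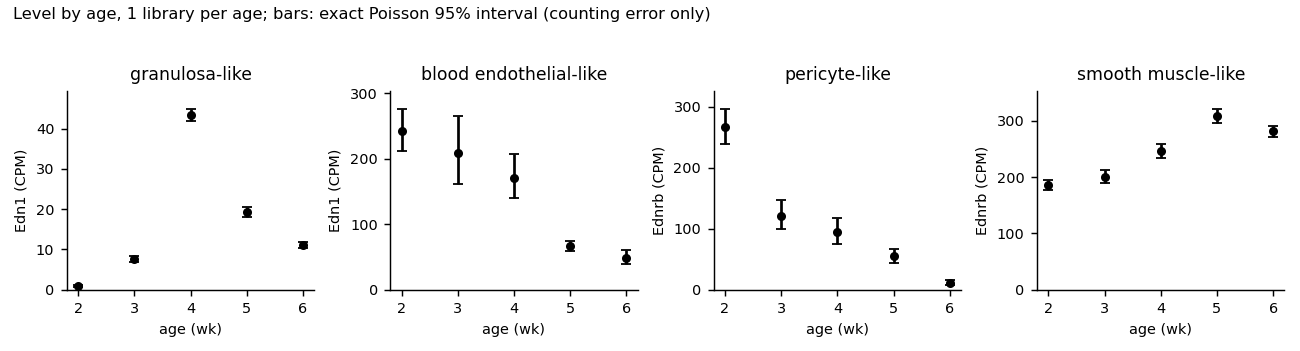
CPM against age in wk, 1 library per age, for Edn1 in granulosa-like and blood endothelial-like cells and Ednrb in pericyte-like and smooth muscle-like cells. Bars are exact 95% Poisson intervals, which cover counting error only. Edn1 peaks at 43.3 CPM at 4 wk in granulosa-like cells and goes from 242.0 to 48.3 CPM in blood endothelial-like cells. Ednrb goes from 266.6 to 11.2 CPM in pericyte-like cells.

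A second clustering of granulosa-like cells, again without the 6 genes, gave groups named from follicle-stage markers. Clusters of 1809, 873 and 366 cells, led by Igfbp5, Calb1 and Col1a2, stayed unnamed and enter no group value. The first 2 scored best for secondary follicles, so no group stands for that stage. The remodeling group (5435 cells, with markers such as Cald1, Itih5 and Ghr) had Edn1 at 2.68, 13.3, 47.2, 28.6 and 26.7 CPM at the 5 ages. The antral group (1879 cells, named from markers of fluid-filled follicles) had 1.56, 15.1, 68.1, 22.1 and 7.22 CPM. The study's counts in whole ovaries found antral follicles only from 3 wk on, so the stage of its cells at 2 wk is uncertain. The mitotic group (4011 cells) had 0.717, 10.1, 46.0, 16.3 and 5.13 CPM. All 3 groups were highest at 4 wk. The make-up of the class also differed: the remodeling group held 293 of 3014 granulosa-like cells at 2 wk and 2180 of 5083 at 4 wk. The unnamed cluster led by Igfbp5 held 555 and 298 cells at these ages. The part of these shares in the Edn1 ratios of the class was not tested. The name of the remodeling group is least firm for its cluster led by Vpreb3, itself an antral marker. That cluster held 166 of the 293 remodeling cells at 2 wk and 305 of 467 at 3 wk. The state of the group's cells at these ages is therefore uncertain. The primary group (2670 cells) had 0.290 to 3.69 CPM and the primordial group (806 cells), from the resting follicles, 0.509 to 7.48 CPM. At 4 wk these early-follicle groups stood at 3.69 and 3.15 CPM against at least 46.0 CPM in the remodeling, antral and mitotic groups. The mitotic group is named from division and stands for no follicle stage.

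The antral and remodeling groups were not even inside. Of the antral clusters, the one led by Dnajb13, Slc38a5 and Nap1l5 had Edn1 at 1.81, 15.9, 76.1, 34.0 and 12.9 CPM. The one led by Cyp11a1, Inhba and Cyp19a1, genes of steroid and inhibin production, had 1.37, 14.1, 37.1, 2.89 and 1.98 CPM. Both were high at 4 wk, and at 5 and 6 wk only the first kept more than 10 CPM. The remodeling cluster led by Gm15866, Lox and Adamts5 had 1 cell at 2 wk and no Edn1 UMI in its 14 cells at 3 wk. From 4 wk on it stood at 48.7, 38.8 and 53.8 CPM, and its 6 wk level was the highest among the granulosa clusters. In the heat map by cluster, Edn1 is bright at 4 wk in the antral and remodeling clusters and in 4 of 5 mitotic clusters. The other mitotic cluster has 13 cells at 4 wk. Mean Edn3 is highest in the primordial cluster (13.2 CPM) and the primary cluster led by H19 (8.80 CPM). The other primary cluster has 3.13 CPM, below the 4.00 CPM of the unnamed cluster led by Col1a2. The remodeling cluster led by S100a6 reaches 8.89 CPM at 2 wk.

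**Figure D3:**
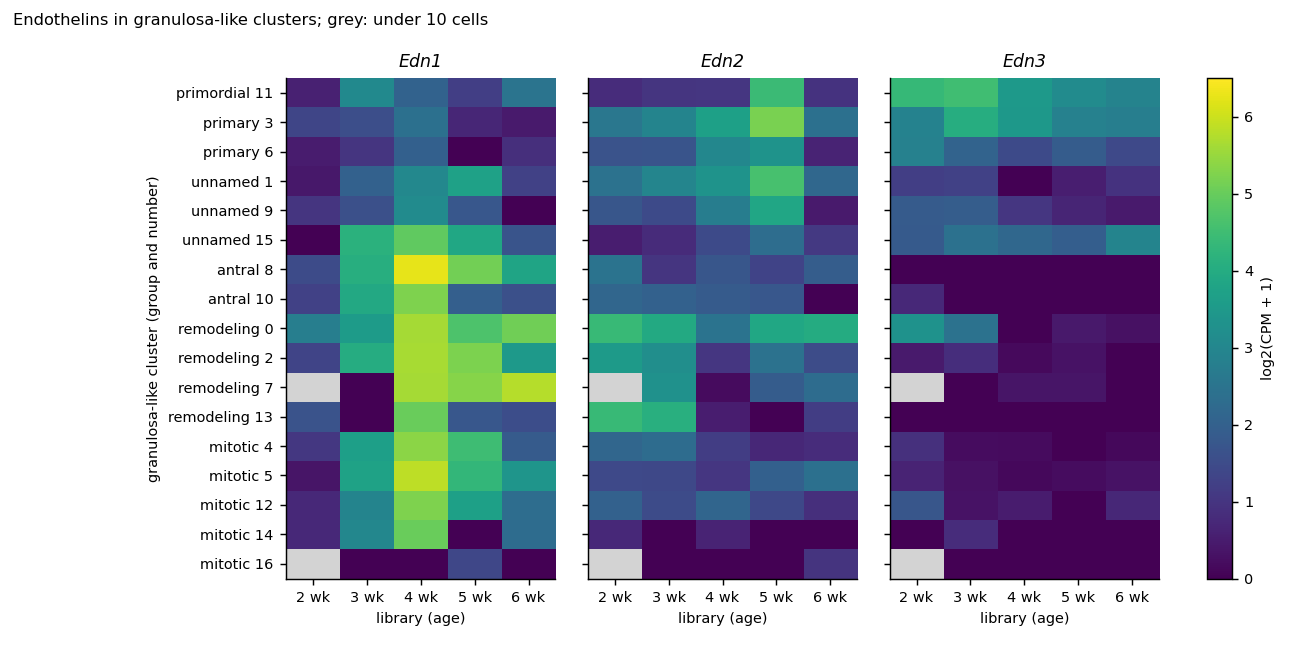
Edn1, Edn2 and Edn3 as log2(CPM + 1) in each granulosa cluster (rows, with the group name) and library (columns, by age in wk). Grey marks sets under 10 cells. At 4 wk the antral group stands at 68.1 CPM of Edn1 and the primordial group at 3.15 CPM.

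Edn2, the ligand described around ovulation, was the scarcest of the 6 in UMIs and was highest in surface epithelial-like cells, the layer covering the ovary. There it stood at 62.6, 26.8, 16.9, 59.2 and 11.6 CPM (mean 35.4 ± 23.9, n = 5), with a UMI in 32.4, 16.7, 8.16, 30.8 and 6.25% of cells. The spread between libraries was large, and no age order held. Granulosa-like cells stood at 3.78, 4.06, 2.65, 7.28 and 3.49 CPM (mean 4.25 ± 1.77) and held 78.0% of all Edn2 UMIs. They were 17.3-fold above stromal-like cells (log2 4.11 ± 0.47, edgeR adjusted p = 0.00020, higher in 5 of 5 libraries). Rete ovarii-like cells stood at 27.4 and 6.88 CPM at 2 and 3 wk. Edn2 was not detected in 230 lymphatic endothelial-like cells, which allows a share of up to 1.30% of cells with a UMI. It did not reach the count minimum in the comparisons of blood endothelial-like, smooth muscle-like or theca-like with stromal-like cells, or of pericyte-like with smooth muscle-like cells, and was not tested there.

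Within granulosa-like cells, Edn2 was spread differently from Edn1. The primary group had 3.49, 4.71, 9.77, 21.4 and 2.13 CPM (mean 8.31 ± 7.89) and the remodeling group 13.9, 9.85, 1.98, 8.29 and 7.38 CPM (mean 8.27). The primary value at 5 wk lay mostly in the cluster led by H19, at 35.8 CPM, where Edn2 stood at 4.26 to 11.9 CPM at the other ages. The unnamed cluster led by Igfbp5 had a mean of 9.43 ± 8.05 CPM, also highest at 5 wk with 23.3 CPM. In the remodeling cluster led by S100a6, Gpx3 and Lgr6 it stood at 19.8, 14.4, 4.52, 13.7 and 14.9 CPM. Its lowest remodeling value was at 4 wk, the age at which Edn1 was highest in that group.

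Edn3, the ligand best known for its part in melanocyte and enteric neuron development through Ednrb, was a gene of the stroma. In stromal-like cells it stood at 21.5, 23.5, 18.6, 10.4 and 17.3 CPM (mean 18.3 ± 5.03), with a UMI in 9.35 to 19.7% of cells and 72.1% of all Edn3 UMIs. Smooth muscle-like cells stood at 7.21, 12.0, 10.3, 4.35 and 7.38 CPM, lower in 5 of 5 libraries although the ranges overlapped (2.10-fold, log2 -1.07 ± 0.11, edgeR adjusted p = 3.5e-05). Granulosa-like cells were 12.9-fold lower than stromal-like cells (log2 -3.69 ± 0.39, edgeR adjusted p = 0.00013) and blood endothelial-like cells 14.0-fold lower (log2 -3.81 ± 0.40, edgeR adjusted p = 5.0e-06), each in 5 of 5 libraries. The blood endothelial-like value of 5.40 CPM at 2 wk stood above the 0 to 0.597 CPM at the other ages, and without that library the log2 difference was -4.75. Theca-like cells had no Edn3 UMI at 2, 3 or 4 wk and 0.754 and 0.651 CPM at 5 and 6 wk.

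Edn3 was uneven among the mesenchymal cells, which took in the classes of stroma, theca and smooth muscle, were clustered again and grouped by marker genes. The group named for Hoxd9, a homeobox gene of posterior body position, had 68.4, 90.7, 80.1, 54.8 and 74.6 CPM (mean 73.7 ± 13.4, 1991 cells), with a UMI in 34.7% of cells. The group named for the collagen gene Col11a1 had 28.4, 41.3, 42.8, 24.5 and 31.9 CPM (mean 33.8 ± 8.02, 3231 cells), and the group named for Col14a1 had 9.67 to 37.8 CPM. These ranges show the Hoxd9 group above the Col11a1 group in every library with no overlap. That gap depends on the name of 1 Col11a1 cluster of 746 cells, which rests on 3 detected markers and shares Slc26a7 and Tnc among its top genes with the Hoxd9 group. It stood at 42.6, 78.9, 74.3, 39.3 and 38.6 CPM, overlapping the Hoxd9 range. The groups with least were the steroidogenic theca group, at a mean of 1.76 CPM, and the Cd24a group, at 4.99 CPM at 2 wk and 0.549 to 1.89 CPM later. In the Cxcl12 group Edn3 stood at 17.2 and 23.3 CPM at 2 and 3 wk and at 5.28 to 6.12 CPM from 4 wk on. Although left out of the clustering, Edn3 was among the top 10 genes by fold of a Hoxd9 cluster and of a Col11a1 cluster.

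In granulosa-like cells Edn3 was highest in the early-follicle groups. The primordial group had 19.6, 21.9, 10.5, 7.75 and 6.47 CPM (mean 13.2 ± 7.06) and the primary group 6.32, 10.1, 6.33, 4.35 and 3.43 CPM (mean 6.10). The antral group had 0.391 CPM at 2 wk and no UMI later. Both early groups were also lower at 5 and 6 wk than at 2 and 3 wk, but by less than the whole class, and the primary group at 4 wk stood at its 2 wk level. The early groups also made up fewer of the cells: the primary group held 824 and the primordial group 318 of 3014 granulosa-like cells at 2 wk, against 423 and 125 of 5083 at 4 wk. The part of these shares in the age ratios of the class was not tested.

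**Figure D4:**
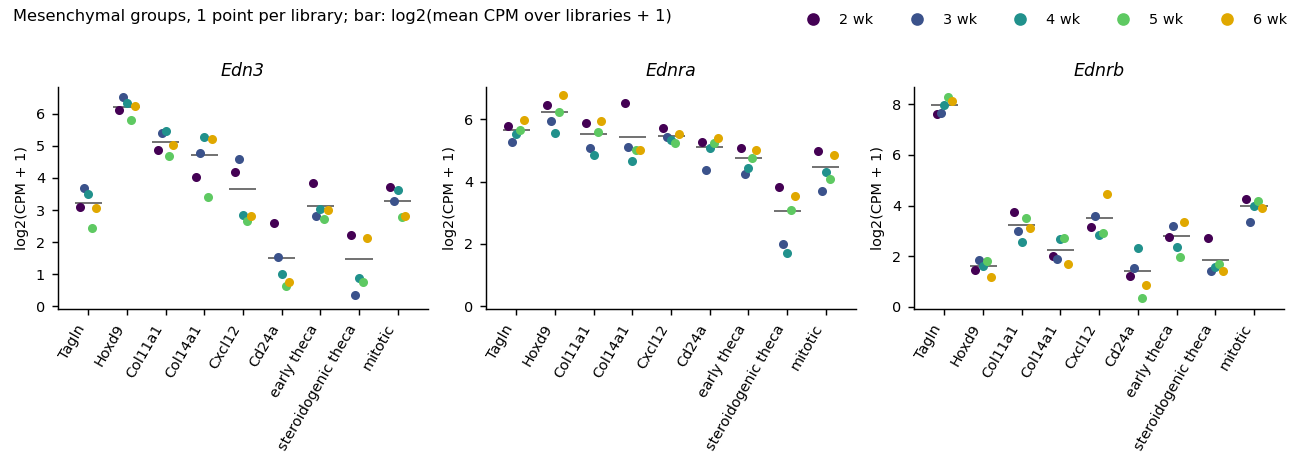
Edn3, Ednra and Ednrb as log2(CPM + 1) in 9 mesenchymal groups, with a point per library coloured by age and a bar at the log2 of the mean CPM plus 1. Edn3 and Ednra are highest in the Hoxd9 group (means 73.7 and 75.1 CPM). Ednrb is highest in the Tagln group (mean 247 CPM) and at most 14.8 CPM on average elsewhere.

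Ednra, the receptor for vasoconstriction, was spread over mesenchymal and granulosa-like cells and was highest in pericyte-like cells, the contractile cells that wrap small vessels. They stood at 107.5, 95.2, 90.3, 102 and 121 CPM (mean 103 ± 11.9) and smooth muscle-like cells at 52.7, 38.6, 44.6, 49.5 and 62.9 CPM (mean 49.6 ± 9.12). The groups did not overlap, and pericyte-like cells were 1.82-fold higher (log2 0.86 ± 0.09, edgeR adjusted p = 1.6e-05, 5 of 5 libraries). When cells were clustered without integration of the libraries this call was lost (edgeR adjusted p = 0.094, against at most 0.00026 in the other alternatives). In that clustering a second cluster of 458 cells, 371 of them from 6 wk, was also named pericyte-like, on 3 detected markers. Its part in the lost call was not tested. Stromal-like cells stood at 48.1, 26.1, 27.5, 31.7 and 46.3 CPM, and smooth muscle-like cells were 1.51-fold above them in 5 of 5 libraries (log2 0.59 ± 0.09, edgeR adjusted p = 0.00032), with overlapping ranges.

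Granulosa-like cells stood at 22.9, 31.9, 33.2, 31.0 and 32.9 CPM of Ednra and held 45.1% of its UMIs. They were higher than stromal-like cells in 2 of 5 libraries, and the difference did not pass the test (log2 -0.35 ± 0.21, edgeR adjusted p = 0.18). Primordial granulosa cells had 42.0, 60.3, 36.7, 41.3 and 42.5 CPM, above the means of 25.6 to 32.4 CPM in the other named granulosa groups. The unnamed clusters led by Igfbp5 and Calb1 had means of 38.8 and 37.6 CPM. Ednra was low on endothelium and on theca: blood endothelial-like cells were 7.63-fold below stromal-like cells (log2 -2.93 ± 0.24, edgeR adjusted p = 6.7e-07) and theca-like cells 5.76-fold below them (log2 -2.52 ± 0.17, edgeR adjusted p = 7.9e-06), both in 5 of 5 libraries. Among mesenchymal groups the Hoxd9 group stood highest, at 86.7, 60.4, 46.1, 73.9 and 108.5 CPM, and the steroidogenic theca group lowest, at 13.3, 3.02, 2.24, 7.56 and 10.5 CPM. The Col11a1 cluster of 746 cells had a mean of 70.2 CPM, and the Hoxd9 group was above it in only 2 of 5 libraries. In the Col14a1 group the 2 wk library stood apart at 90.7 CPM, with 24.3 to 33.6 CPM at the other ages.

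Ednrb, the receptor that on endothelium drives nitric oxide release, was highest in smooth muscle-like cells, which held 70.6% of its UMIs. They stood at 185.4, 201.0, 246.1, 309.2 and 281.5 CPM (mean 245 ± 52.3), with a UMI in 51.1 to 65.3% of cells. Stromal-like cells stood at 9.07, 5.76, 5.96, 7.24 and 7.81 CPM, 35.8-fold lower (log2 difference 5.16 ± 0.15, edgeR adjusted p = 7.8e-09, smooth muscle-like cells higher in 5 of 5 libraries). Granulosa-like cells, at 0.444 to 2.59 CPM, were 5.83-fold below stromal-like cells (log2 -2.54 ± 0.42, edgeR adjusted p = 0.0013).

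Both endothelial classes carried Ednrb. Blood endothelial-like cells stood at 61.6, 58.2, 129.4, 77.3 and 72.8 CPM (mean 79.8), 10.0-fold above stromal-like cells (log2 3.32 ± 0.20, edgeR adjusted p = 4.3e-08, 5 of 5 libraries). Lymphatic endothelial-like cells stood at 59.7, 295.8, 118.0, 103.3 and 75.4 CPM, from 15 to 81 cells each, and their range overlapped that of smooth muscle-like cells. Hematopoietic-like cells stood at 32.8, 42.9, 60.6, 13.1 and 4.34 CPM. In those cells blood endothelial markers summed to 125 to 378 CPM and smooth muscle markers to 212 to 1603 CPM, and their part in the Ednrb level was not tested.

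Among the mesenchymal groups Ednrb was highest in the Tagln group, named for the smooth muscle protein transgelin, at 193.6, 203.2, 249.1, 309.4 and 280.8 CPM (58.9% of cells with a UMI), with means of 1.68 to 14.8 CPM in the other 8 groups. Inside it, the cluster led by Cnn1, Actg2 and Myh11, genes of mature contractile muscle, had 180.7, 265.6, 331.1, 417 and 387.4 CPM. The largest cluster, with Foxp2 and Myocd among its top genes, had 206.9, 200.6, 207, 229.6 and 218 CPM. The first cluster was above the second from 3 wk on and below it at 2 wk. A cluster of 474 cells led by Carmn had 312, 234, 227, 429.8 and 186 CPM, the highest of these at 2 and 5 wk. A small cluster led by Pcp4 and Des had 49.7 to 135 CPM of Ednrb, and Edn1 at 5.81, 12.1, 35.2, 18.8 and 25.4 CPM, from 2 to 13 UMIs per library.

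In pericyte-like cells Ednrb stood lower in each later library. It measured 266.6, 121.5, 94.9, 54.9 and 11.2 CPM at 2, 3, 4, 5 and 6 wk, and in 48.9, 29.5, 22.5, 13.2 and 5.51% of cells. At 2000 UMIs per cell the shares were 32.0, 15.7, 13.7, 6.59 and 2.56%. The ratio over 2 wk was 0.456, 0.356, 0.206 and 0.0421 (0.0277 to 0.0616) at 3, 4, 5 and 6 wk. Among all genes with enough UMIs in pericyte-like cells, 4.93, 7.04, 5.81 and 7.94% were past 2-fold at those ages, and Ednrb was past it at all 4. Ednra in the same cells stayed between 0.840 and 1.13 times its 2 wk level and Ece1 between 0.944 and 1.66 times. In smooth muscle-like cells Ednrb stood at 1.08, 1.33, 1.67 and 1.52 times its 2 wk level over the same ages, the opposite direction.

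Smooth muscle RNA also stood lower in the later pericyte-like cells. Smooth muscle markers summed to 10716, 12348, 9742, 8286 and 5643 CPM there, which is a 2.19-fold span, while pericyte markers summed to 4910, 4016, 4657, 6215 and 6139 CPM. The Ednrb values spanned 23.8-fold over the same libraries. Their part in the Ednrb order was not tested.

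Pericyte-like cells were lower in Ednrb than smooth muscle-like cells in 4 of 5 libraries, the exception being 2 wk (3.33-fold, log2 -1.74 ± 0.56, edgeR adjusted p = 0.028). The call was lost without the 4 wk library (adjusted p = 0.078), without the 5 wk library (0.108) and without the library block (0.063), with 0.00056 to 0.046 in the other alternatives, and the log2 difference was -2.38 without 2 wk and -1.13 without 6 wk. Edn3 was 4.02-fold lower in pericyte-like cells (log2 -2.01 ± 0.32, edgeR adjusted p = 0.00045, 5 of 5 libraries). Ece1 was 1.28-fold higher in 5 of 5 libraries (log2 0.36 ± 0.12, edgeR adjusted p = 0.030), a call lost in 7 of 13 alternatives, whose adjusted p ran from 0.011 to 0.145 and included those without the 3, 4 or 5 wk library. Edn1 did not pass (log2 0.11 ± 0.67, edgeR adjusted p = 0.93). With Ednra this makes 4 of the 5 tested members called, where 43.4% of all genes tested were.

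The balance of the receptors differed between the vascular and muscular classes. Counted as Ednrb UMIs per Ednra UMI, smooth muscle-like cells had 3.52, 5.21, 5.52, 6.25 and 4.48. Pericyte-like cells had 2.48 (95% interval 2.03 to 3.05), 1.28, 1.05, 0.538 and 0.0927 (0.0610 to 0.136), so their counts went from mostly Ednrb at 2 wk to mostly Ednra at 5 and 6 wk. Blood endothelial-like cells had 6.33, 6.33, 15.8, 26.2 and 17.4, stromal-like cells 0.169 to 0.228 and granulosa-like cells 0.0139 to 0.0787. The blood endothelial-like ratios rest on 9, 3, 5, 15 and 7 Ednra UMIs. Their 95% intervals were wide, 1.86 to 33.4 at 3 wk and 15.7 to 47.3 at 5 wk. The ratio compares classes and not the true amounts of the receptors, since capture can differ between genes.

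**Figure D5:**
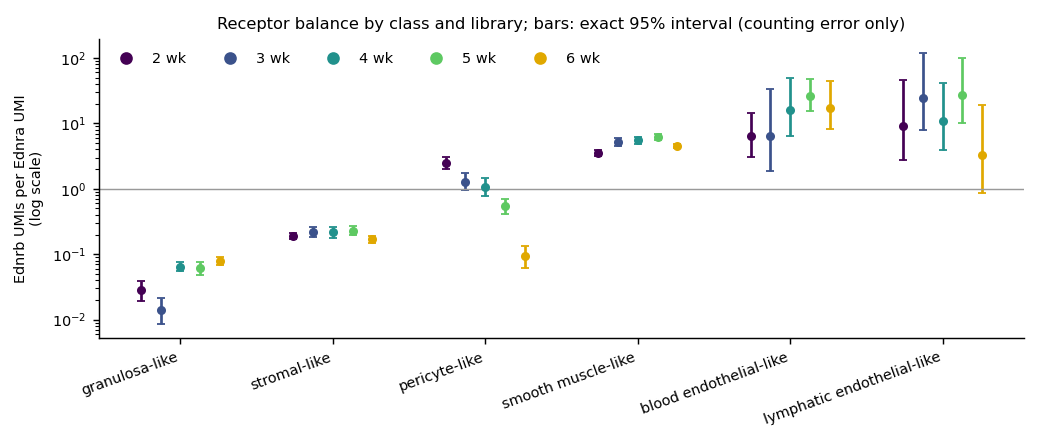
Ednrb UMIs per Ednra UMI (log axis) in 6 cell classes, a point per library coloured by age, with exact 95% intervals for counting error. Smooth muscle-like cells lie between 3.52 and 6.25 and stromal-like cells between 0.169 and 0.228. Pericyte-like cells span 2.48 at 2 wk to 0.0927 at 6 wk.

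Single smooth muscle-like cells carried both receptors. At 2, 3, 4, 5 and 6 wk a UMI of each was seen in 21.6, 12.2, 15.9, 25.3 and 28.5% of these cells, Ednrb alone in 33.4, 39.0, 40.9, 40.0 and 36.0%, and Ednra alone in 10.3 to 16.0%. Cells with an Ednra UMI had Ednrb in 54.2 to 70.7% of cases and those without it in 50.2 to 64.3%. The share with Ednrb was thus higher by at most 8.4 percentage points where Ednra was detected. Cells with an Ednra UMI were also deeper in every library, with medians of 10677 against 8020.5 UMIs at 5 wk. In pericyte-like cells both receptors were seen in 34.5, 19.4, 8.70, 7.84 and 4.72%, and Ednra alone in 25.2, 22.5, 28.3, 42.2 and 58.7%.

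Ece1, whose product makes the active peptide from its inactive precursor, had UMIs in every class. Its mean was lowest in hematopoietic-like cells, the gauge of free RNA used above, at 43.7 CPM. Smooth muscle-like, stromal-like and theca-like means were close to that, at 47.9, 49.8 and 52.0 CPM, so these classes were not clearly separated from it. Whether hematopoietic-like cells make Ece1 themselves was not tested, so their level cannot be read as free RNA alone. Ece1 was highest in lymphatic endothelial-like cells, at 318.5, 295.8, 285.3, 434.2 and 301.7 CPM (mean 327 ± 61.1). Next were blood endothelial-like cells, at 167.5, 134.9, 134.3, 221.0 and 160.5 CPM (mean 164 ± 35.4). The ranges of these 2 endothelial classes did not overlap. Granulosa-like cells stood at 146.8, 114.5, 97.2, 156.0 and 142.4 CPM and held 66.1% of its UMIs. Blood endothelial-like cells were 3.03-fold above stromal-like cells (log2 1.60 ± 0.12, edgeR adjusted p = 2.3e-07) and granulosa-like cells 2.39-fold above them (log2 1.26 ± 0.05, edgeR adjusted p = 1.7e-06), each in 5 of 5 libraries.

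The Ece1 differences of smooth muscle-like and theca-like from stromal-like cells did not pass the test (log2 0.05 ± 0.06, edgeR adjusted p = 0.47, and 0.06 ± 0.09, adjusted p = 0.62). Within granulosa-like cells it was highest in the primordial group, at 248, 204, 224, 284 and 283 CPM, with means of 155, 151, 115 and 104 CPM in the remodeling, primary, antral and mitotic groups. Among mesenchymal groups it was highest in the Hoxd9 group, with a mean of 80.2 CPM. Granulosa-like cells with an Edn1 UMI had an Ece1 UMI in 94.3, 76.6, 69.7, 92.0 and 83.8% of cases, and those without Edn1 in 87.3, 72.7, 68.3, 84.0 and 87.0%. The first share was higher in 4 of 5 libraries, and cells with an Edn1 UMI were also deeper in all 5, with medians of 15213 against 12420 UMIs at 4 wk.

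Theca-like cells, named for the steroid-producing cells in the outer layers of the follicle, were low in most of the system. Edn3 was 30.2-fold below stromal-like cells (log2 -4.92 ± 0.47, edgeR adjusted p = 5.1e-05) and its log2 difference was -7.21 without the 5 wk library, which held most theca-like cells. Ednrb was 2.49-fold below (log2 -1.31 ± 0.33, edgeR adjusted p = 0.010), with values of 9.03, 1.40, 1.21, 2.93 and 1.95 CPM. These Ednrb values rest on only 12, 3, 3, 35 and 3 UMIs. Edn1 did not differ past the threshold (log2 -0.16 ± 0.67, edgeR adjusted p = 0.88). With Ednra this gives 3 of 5 tested members called, all lower in theca-like cells, where 43.9% of all genes tested were called.

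The members called in the other comparisons stood against backgrounds that were also high. Between blood endothelial-like and stromal-like cells all 5 tested members were called (3 higher, 2 lower) and 48.0% of all genes tested. Between smooth muscle-like and stromal-like cells it was 4 of 5 (3 higher, 1 lower) and 53.1%. Between granulosa-like and stromal-like cells it was 5 of 6 (3 higher, 2 lower) and 68.9%.

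Other genes of the pathway are described by lists of the processing enzymes, the G proteins and effectors, the regulators of receptor shut-off, the contractile apparatus, other vasoactive genes and the regulators of endothelin transcription. These genes took part in the clustering, so their counts are a description. In blood endothelial-like against stromal-like cells, 6 of 10 vasoactive genes tested were called higher and 3 lower. Nos3, the endothelial nitric oxide synthase that acts downstream of Ednrb, led them at a log2 difference of 8.72 ± 0.18 (edgeR adjusted p = 6.1e-12), beside Calcrl at 3.71 ± 0.14, the receptor subunit for the vasodilator adrenomedullin. Of the signalling genes 12 of 17 were higher and 1 lower (median 0.56 against -0.03 over all genes). Of 10 regulators of endothelin genes 5 were higher and 4 lower (median 0.07), with Epas1, a hypoxia-inducible factor, at 4.41 ± 0.34 (edgeR adjusted p = 3.2e-07). Of 7 processing genes 2 were higher and 3 lower (median -0.62), with the convertase gene Furin at 0.70 ± 0.15 (edgeR adjusted p = 0.0019).

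In pericyte-like against smooth muscle-like cells, 9 of 11 contractile genes were lower and 1 higher (median -1.10 against -0.01 over all genes). Acta2, smooth muscle actin, stood at -1.38 ± 0.15. Of the genes that shut off G protein signalling 6 of 11 were higher and 1 lower, among them Rgs5 at 11.58 ± 0.30, itself a pericyte marker, and Rgs4 at 7.58 ± 0.32. Of 11 vasoactive genes tested, 4 were higher and 5 lower (median -0.99). Agtr1a, the angiotensin II receptor, was higher by 5.12 ± 0.35 on the log2 scale. In smooth muscle-like against stromal-like cells all 11 contractile genes were higher (median 3.62), 6 of which were also markers that named the class. Of 10 vasoactive genes tested there, 3 were higher and 3 lower. Oxtr, the oxytocin receptor, was higher by 2.46 ± 0.17 (edgeR adjusted p = 1.6e-06). Stress-response genes moved in the same comparison, with 11 of 15 higher and 0 lower.

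In granulosa-like against stromal-like cells, 11 of 18 signalling genes were lower and 4 higher (median -0.40 against 0.03 over all genes), and all 11 contractile genes were lower. Of 10 genes that regulate endothelin transcription, 4 were higher and 5 lower: Foxo1 stood at 2.09 ± 0.16 (edgeR adjusted p = 2.6e-05) and Hif1a at 1.15 ± 0.06 (adjusted p = 6.2e-06), while the shear-stress factors Klf2 and Klf4 stood at -2.28 and -3.48. Of 8 processing genes 2 were higher and 4 lower, with Furin at -0.70 and the related convertase Pcsk6 at 1.32 ± 0.27 (adjusted p = 0.0037). All 15 stress-response genes were lower. In theca-like against stromal-like cells, 0 of 7 processing genes and 8 of 10 regulators were called, the latter all lower. Of 10 vasoactive genes tested there, 5 were lower and 1 higher (median -0.99 against -0.02 over all genes). The gene called higher was Oxtr, at 3.05 ± 0.38 (edgeR adjusted p = 0.00024).

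The genes whose pattern was most like each member were taken by Pearson's r of log2(CPM + 1) over 46 sums of a class in a library, among 12176 genes; sums of a library share its depth and no p is given. For Edn1 they were Samd12 (r = 0.754), the endothelial transcription factor gene Sox17 (0.732) and Mecom (0.712). For Edn2 they were Baiap2l1 (0.923), Fam241b (0.903) and Epn3 (0.900). For Edn3 they were Arsi (0.772), Mfap4 (0.745), a gene of the extracellular matrix, and Kcne1l (0.742). Ednra was closest to Crispld2 (0.805), Khdrbs3 (0.791) and Mamdc2 (0.790), and Ednrb to Tspan2 (0.850) and Hip1 (0.837). Ece1 was closest to Adam10 (0.913), a membrane protease gene, then Dock9 (0.883) and Rassf9 (0.857). The coefficients were lowest for Edn1 and Edn3 and highest for Edn2 and Ece1.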

How the data were processed

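Single-cell counts from 5 libraries of C57BL6/J ovary were used as deposited. Per the labels and the study's methods, ovaries were trypsinized at 37 °C and live cells were sorted. The authors made the deposited UMI counts with Cell Ranger 3.1.0 (2 to 4 wk) and 6.0.1 (5 and 6 wk) on mm10, from the 3′ end and by strand. Median depth was 9056 to 12424 UMIs per cell.

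The 6 genes were left out of the 2000 variable genes. Libraries were joined by anchors and clustered in Seurat 5.3.0 (50 components computed, 30 used, resolution 1). Clusters were named from at least 3 detected markers. Granulosa-like and mesenchymal cells were clustered again. Scrublet in scanpy 1.11.5 marked 1487 doublets (3.09%), which were kept and left out in an alternative.

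Counts were summed per class and library (at least 10 cells) and tested in edgeR 4.0.16 (R 4.3.3) with TMM scaling, its expression filter, a library block and Benjamini-Hochberg adjustment over all genes at 0.05. Ages were compared as CPM ratios over 2 wk with exact intervals at 95% confidence, for genes with at least 50 UMIs. Sets for these ratios and for like genes needed at least 20 cells. Shares were exact, also at 2000 UMIs per cell, where cells with fewer UMIs were left out. Per contrast, 13 alternatives were run. Named pathway genes were taken from the 4 of each list with the highest mean CPM in the classes compared, and like genes were the 3 highest in r, of which 1 is not reported here. The 6 genes and the lists were chosen with earlier results of these data known.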

Additional observations from a re-analysis of the deposited data

Results flagged for a closer look

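In 4 cases a gene stood above its 2 wk level at every later age in one class, with counting intervals above 1, and below its 2 wk level at every later age in another. Other pairs stood on opposite sides of their 2 wk level at some later ages only. An example is Ednrb in granulosa-like and pericyte-like cells at 4, 5 and 6 wk. The differences between classes were not tested, since each age has 1 library. At 6 wk Edn1 stood at 12.6 times (95% interval 9.38 to 17.2) its 2 wk level in granulosa-like cells and at 0.200 times (0.153 to 0.259) in blood endothelial-like cells. Ednrb stood at 1.52 times (1.43 to 1.61) its 2 wk level in smooth muscle-like cells, at 0.0421 times (0.0277 to 0.0616) in pericyte-like cells and at 0.861 times (0.740 to 1.0004) in stromal-like cells. Ednra stood at 1.44 times (1.34 to 1.54) in granulosa-like cells and at 0.963 times (0.904 to 1.03) in stromal-like cells. Both stromal-like intervals include 1 at 6 wk, while those at 3, 4 and 5 wk lay below 1.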

How the results depend on the processing

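The number of members called between pericyte-like and smooth muscle-like cells was 4, and 2 without the library block or when cells were clustered without integration. Leaving out 1 library in turn gave 2 to 4, with 2 without the 4 wk or the 5 wk library. Called members of the other 4 comparisons kept their direction and stayed past the threshold in each of the alternatives run. Of the 5 uncalled differences, 3 changed sign. For Edn1 in pericyte-like over smooth muscle-like cells the log2 difference was -0.89 in DESeq2, -0.080 without integration, -1.28 without doublets and -0.68 to 0.53 leaving out 1 library. For Edn1 in theca-like over stromal-like cells it was 0.14 without the block, 0.059 with stricter limits on cells and -1.65 to 0.13 leaving out 1 library. For Ece1 in the same comparison it was -0.071 at resolution 0.6, -0.0021 without doublets and -0.0015 to 0.085 leaving out 1 library.

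With mitochondrial and ribosomal genes left out of the total, mean CPM was 6.28 for Edn2 in granulosa-like cells. It was 26.9 and 11.7 for Edn3 in stromal-like and smooth muscle-like cells, 133, 70.1 and 52.8 for Ednra in pericyte-like, smooth muscle-like and stromal-like cells, and 345 for Ednrb in smooth muscle-like cells. It was 423, 217 and 194 for Ece1 in lymphatic endothelial-like, blood endothelial-like and granulosa-like cells. These shifts follow from the smaller total. Without integration, Ednra in pericyte-like cells was 79.2 CPM, the Ednrb ratio over 2 wk in pericyte-like cells was 0.254 at 4 wk and 0.0696 at 6 wk, and that in smooth muscle-like cells 1.19, 1.48 and 1.35 at 4, 5 and 6 wk. Thinned to 1000 UMIs, the share of lymphatic endothelial-like cells with Ece1 was 1.98 times that of blood endothelial-like cells, against 1.61 at 2000. The pericyte-like class without integration held the cluster led by Rgs5 (867 cells) and a second cluster of 458 cells, 371 of them from 6 wk. That second cluster had a median of 4007 UMIs and was named on 3 detected markers, with Uchl1, Bpgm and Birc5 as its top genes. Its part in the pericyte-like values was not tested, nor was the cause of the other changes except for the total. Depth limits the smallest classes: sets of under 60 cells rest on few UMIs.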
